A study of Mus musculus with 6 samples.

Results

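The genes described here carry out the unfolded protein response (UPR) of the endoplasmic reticulum (ER) and the integrated stress response (ISR). They were chosen by name as 34 genes, and all 34 were measured among the 18193 genes on the arrays, Ero1l under its current symbol Ero1a. By role they were 16 ER chaperones and folding enzymes, 4 genes of ER-associated degradation, the translocon subunit gene Sec61b, 4 genes for the UPR sensors and XBP1, 3 genes for the ISR kinase GCN2, ATF4 and the phosphatase subunit CReP, and 6 target genes of ATF4. The leukaemias were mouse T-cell acute lymphoblastic leukaemias (T-ALL) of genotype Notch1[delta]E mycGFP on strain C57BL/6, where Notch1[delta]E is an activated NOTCH1 receptor and GFP reports c-Myc. Every sample was CD25+ Notch1-deltaE+ cells from the spleen of mice aged 12 weeks, taken 4 weeks after transplantation into congenic recipients and sorted by mCherry and GFP. The groups differed by the GFP gate: 3 arrays of MycGFP negative and 3 arrays of MycGFP positive cells, each numbered 1 to 3, from a design of 3 independent leukaemias. The labels do not say which number belongs to which leukaemia, and they do not say what mCherry marks.

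The UPR adjusts the folding capacity of the ER to its protein load. The sensors IRE1 (Ern1), ATF6 and PERK (Eif2ak3) detect unfolded protein in the ER lumen. IRE1 splices the Xbp1 transcript, ATF6 is cleaved to a transcription factor, and both raise the transcription of chaperones and degradation genes. PERK phosphorylates the translation factor eIF2, as do GCN2 (Eif2ak4) under amino acid shortage and other kinases, and this lowers translation in general while favouring that of ATF4, which activates genes of amino acid supply and of stress-induced death. The splicing of Xbp1, the cleavage of ATF6, the phosphorylation of eIF2 and the translation of ATF4 leave no direct trace in probe set intensities, so the values below are transcript levels only.

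Chaperone promoters carry a known element, the ER stress response element (ERSE), which is bound by NF-Y and by ATF6 or XBP1. Its letters, CCAAT and CCACG with any 9 bases between them, were searched on both strands in windows from 250 bases before to 50 bases after each annotated start site, taken from RefSeq on build GRCm38.p6. Windows were given for 30 of the 34 genes. The ERSE stood in those of 8 of the 30, against 37 of all 27025 genes with a window (0.137%), and 7 of the 8 were chaperones. The promoter of Hspa5, which encodes the chaperone BiP, is shown over the bases before the start site (chr2:34771840-34772089, plus strand), with the ERSE in capitals, its first base 65 bases upstream of the start site.
Hspa5: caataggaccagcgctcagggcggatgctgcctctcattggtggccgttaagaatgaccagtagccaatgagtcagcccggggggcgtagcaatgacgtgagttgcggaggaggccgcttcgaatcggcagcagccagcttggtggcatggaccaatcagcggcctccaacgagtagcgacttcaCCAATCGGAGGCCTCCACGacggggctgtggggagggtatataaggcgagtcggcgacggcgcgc

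The other ERSE matches are shown with 20 bases on either side, turned so that CCAAT comes first, because genes with the same element had different transcript changes in these arrays. Pdia6 (chr12:17266471-17266529, plus strand) and Creld2 (chr15:88819500-88819558, minus strand) encode a disulfide isomerase and a folding factor. Hsp90b1, which encodes the chaperone GRP94, had a distal match (chr10:86705618-86705676, minus strand) and a proximal match (chr10:86705513-86705571, plus strand). Canx (chr11:50325780-50325838, minus strand) and Calr (chr8:84847055-84847113, plus strand) encode the lectin chaperones calnexin and calreticulin. Dnajc3 (chr14:118937807-118937865, plus strand) encodes the co-chaperone P58IPK, and Syvn1 (chr19:6046512-6046570, plus strand) the degradation ligase HRD1.
Pdia6: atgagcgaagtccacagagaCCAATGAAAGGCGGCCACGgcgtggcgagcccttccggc
Creld2: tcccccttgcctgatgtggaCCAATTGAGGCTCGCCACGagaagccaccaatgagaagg
Hsp90b1 distal: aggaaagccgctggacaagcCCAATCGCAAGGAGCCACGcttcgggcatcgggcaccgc
Hsp90b1 proximal: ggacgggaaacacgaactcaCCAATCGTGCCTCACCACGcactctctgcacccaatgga
Canx: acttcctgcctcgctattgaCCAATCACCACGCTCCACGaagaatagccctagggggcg
Calr: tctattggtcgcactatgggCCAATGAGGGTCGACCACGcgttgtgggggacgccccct
Dnajc3: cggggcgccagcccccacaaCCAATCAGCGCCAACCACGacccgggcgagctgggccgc
Syvn1: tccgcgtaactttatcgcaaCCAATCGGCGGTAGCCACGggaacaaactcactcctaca

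ATF4 targets carry a different element, the C/EBP-ATF response element, searched here by its core TGATGNAA on both strands. Of the 6 ATF4 target genes, 3 had it in the window (Asns, Chac1 and Trib3), as did 4.51% of all genes with a window, and none of the 6 had an ERSE. Asns (chr6:7693210-7693252, minus strand) encodes asparagine synthetase and Chac1 (chr2:119351029-119351076, minus strand) an enzyme that degrades glutathione. A match in letters is not a measured binding site.
Asns: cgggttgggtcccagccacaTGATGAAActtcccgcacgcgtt
Chac1: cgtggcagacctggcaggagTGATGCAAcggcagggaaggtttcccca

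Values are linear RMA intensities, and each gene was read from its brightest probe set. The array medians lay between 30.5 and 32.7, and a gene near that level may be background. Myc was 2.58-fold higher in MycGFP positive cells (limma, adjusted p = 0.0329). All 9 measured T cell and pre-TCR markers were above the array medians on every array, and Il2ra, which encodes the sorted CD25, stood at 6777 to 10857 in negative and 5396 to 9462 in positive cells. Their sum was apart between the groups, at 66305 to 69075 in negative and 51420 to 57109 in positive cells. Cd4, the co-receptor gene, was 7.26-fold lower in positive cells (limma, adjusted p = 0.017), and Cd247, for a chain of the T cell receptor complex, was at 1112 to 2045 in negative and 678 to 849 in positive cells (0.0625). Of the other cell types, myeloid markers were high on the arrays numbered 2, with a summed intensity of 9994 (negative) and 2216 (positive). The other arrays had 270.6 to 1099, so the groups overlapped. B cell markers summed to 242 to 826 in negative and 144 to 519 in positive cells, and erythroid markers to 82.05 to 136 and 81.9 to 142. Dendritic and NK cell markers summed to 179 to 395 and 96.1 to 165, which were apart. Of these, Klrd1 was at 101 to 317 in negative and 21.2 to 92.5 in positive cells (limma, adjusted p = 0.096), and the others overlapped. No marker of these other cell types was called. The Gapdh control probe sets served as a measure of RNA integrity. Their 3'/5' ratio was 1.582 to 1.889 in negative and 1.475 to 1.580 in positive cells, narrowly apart and lower in positive cells. The actin control probe sets had 1.54 to 1.87 and 1.72 to 1.85, which overlapped. The part of these ratios and of the marker sums in the results was not tested.

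In MycGFP positive cells the genes for BiP, for its cofactor SDF2L1 and for the disulfide isomerase PDIA6 rose, and that for P58IPK fell. No other gene of the 34 passed the test. Thus 3 of 34 were called higher and 1 lower at an adjusted p under 0.05 over all genes (limma, two-sided, 3 against 3 arrays), while 4.62% of all genes were called higher and 1.51% lower. Among the 9096 genes whose mean level was above the median over genes, tested alone, 1022 were called higher and 328 lower. Those 9096 held 31 of the 34 genes, of which 3 were called higher and 1 lower. All 4 called genes belonged to the 16 chaperones and folding enzymes, whose median log2 difference (positive minus negative) was 0.45. It was 0.01 over all genes and 0.14 over those 9096 brighter genes, and no chaperone was under the array median on any array. The ATF4 targets had a median of -0.18, which turned positive under 2 other treatments of the probe sets and without negative or positive array 1. None of them was called by limma, nor did any pass without adjustment (0 of 6 at p under 0.05), whereas 10 of the 34 genes were higher and 3 lower at that level, against 14.7% and 7.35% of all genes. With the array number as a block, 5 of the 34 were higher and 1 lower, Creld2 and Asns being added (adjusted p = 0.0443 and 0.0348), while 5.75% of all genes were called higher and 1.95% lower.

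The size of the 4 called differences changed little when 1 array was left out, but calls were lost. The log2 difference stayed between 0.86 and 0.94 for Hspa5, 1.48 and 1.92 for Sdf2l1, 0.73 and 0.82 for Pdia6, and -0.79 and -0.63 for Dnajc3. Without positive array 1, 2 or 3, or without negative array 2, none of the 34 was called, and without positive array 2 no gene on the arrays was called. Fewer of all genes were then called too: the shares higher and lower fell to 0.956% and 0.302% when positive array 1 was dropped, to 0.572% and 0.143% when positive array 3 was, and to 0.72% and 0.203% when negative array 2 was. Without negative array 1, 2 of the 34 were higher (4.74% of all genes, with 0.967% lower), and without negative array 3, 3 were (3.22%, with 1.31% lower). Hspa5 had adjusted p of 0.0661, 0.0753 and 0.0755 without positive array 1, 2 and 3 and of 0.0685 without negative array 2, and was called without negative array 1 (0.0375) or 3 (0.0328). The call for Sdf2l1 was also lost without negative array 1 (log2 1.69, adjusted p = 0.0595), and that for Dnajc3 without negative array 1 (log2 -0.79, 0.0508) or 3 (log2 -0.69, 0.0949). No label ties an array to a leukaemia or a mouse, so the p-values measure only the variation among the samples hybridised, which may be partly technical. In sorted but pooled cells, fewer cells with a transcript and less of it in each cell cannot be told apart.

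**Figure D1:**
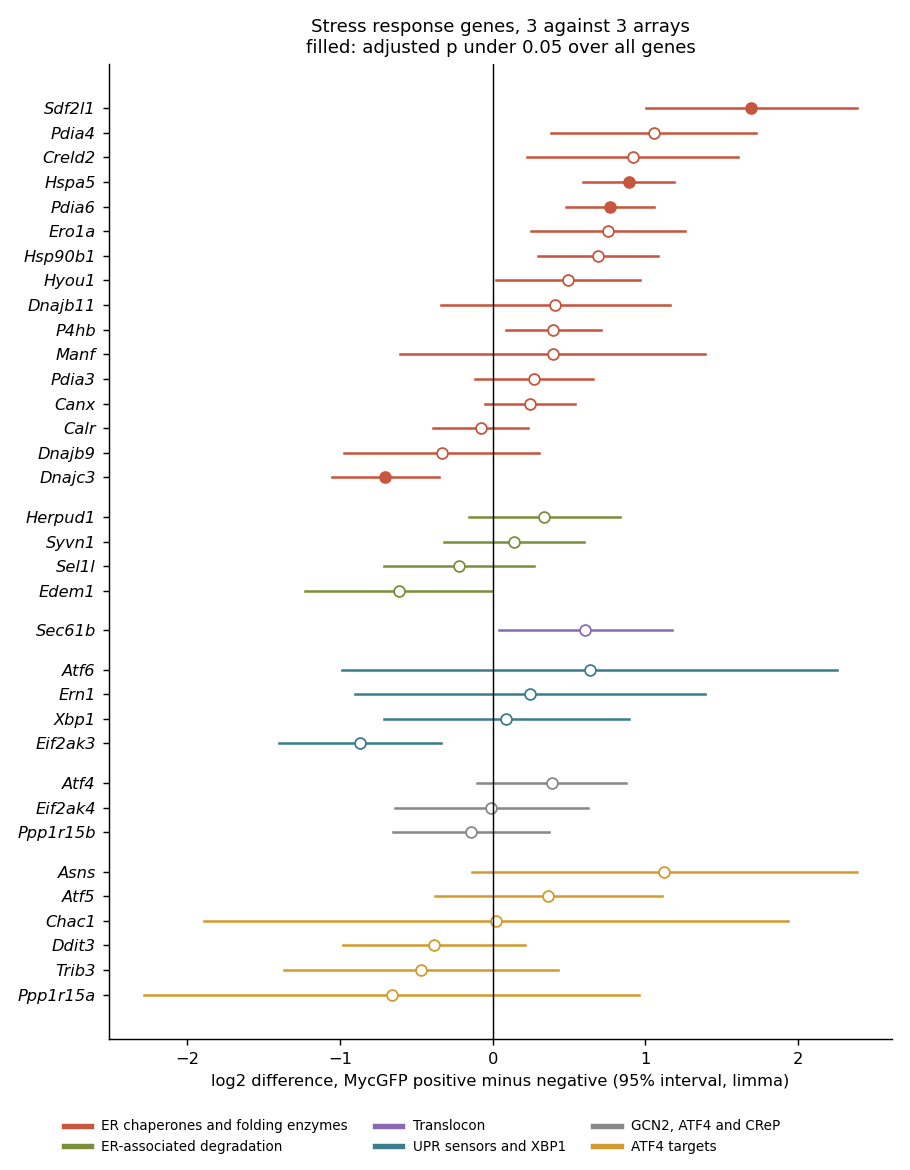
Log2 difference of each of the 34 genes (points, positive minus negative) with its 95% interval from limma (lines), by role, and filled where the adjusted p was under 0.05. The chaperones lie mostly to the right of 0, with Sdf2l1 at 1.70 and Dnajc3 at -0.70 as their extremes, and every interval of an ATF4 target spans 0.

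Hspa5 encodes BiP, the HSP70 of the ER, which binds unfolded chains and holds the sensors inactive. Its intensity was 1904, 1899 and 2121 on negative arrays 1, 2 and 3 and 3685, 3465 and 3830 on positive arrays 1, 2 and 3. The positive values lay well above the negative ones and varied little within either group. This was a rise of 0.89 ± 0.12 (SE) in log2, or 1.85-fold (limma, adjusted p = 0.0194). Adjusted over the 34945 probe sets with 1 symbol, a second Hspa5 probe set was called by limma as well (0.93, adjusted p = 0.0265), and a dim one was not (0.55, adjusted p = 0.0652).

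Sdf2l1 encodes a partner of BiP and its J proteins that slows the aggregation of unfolded chains. It stood at 309, 233 and 424 on the negative arrays and at 1347, 848 and 907 on the positive ones. The groups were apart, and positive array 1 was the highest. The rise of 1.70 ± 0.28 (SE) in log2, or 3.24-fold (limma, adjusted p = 0.0295), was the largest difference among the 34 genes. Its promoter window held none of the elements searched.

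Pdia6 encodes an oxidoreductase that works with BiP. It stood at 292, 285 and 302 on the negative arrays and at 526, 507 and 465 on the positive ones, so both groups were tight and apart. The rise was 0.77 ± 0.12 (SE) in log2, or 1.70-fold (limma, adjusted p = 0.025). It no longer passed when each array was centred on its median (0.0516) or under a trended and robust variance (0.077).

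Dnajc3 encodes P58IPK, a J protein that helps BiP in the lumen and is also described as an inhibitor of PERK. It stood at 4714, 5916 and 5404 on the negative arrays and at 2986, 3507 and 3332 on the positive ones. The order was the reverse of that of Hspa5, with every positive value below every negative one. The log2 difference of -0.70 ± 0.14 (SE) was a fall of 1.63-fold (limma, adjusted p = 0.0463). The other 4 probe sets of Dnajc3 had log2 differences of -0.96 to -0.43, none of which passed. The call was lost without cross-hybridising probe sets (adjusted p = 0.11), where 3 of the 34 were higher and 0 lower, against 4.8% and 1.63% of all genes.

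The remaining chaperones did not pass the test, and most were higher on the positive arrays. Hsp90b1, for GRP94, stood at 2108, 1489 and 1795 on the negative and 2990, 2882 and 2751 on the positive arrays, a log2 difference of 0.69 (adjusted p = 0.0635). The groups did not overlap, and a second Hsp90b1 probe set was called higher (log2 1.21, limma, adjusted p = 0.026 over the probe sets with 1 symbol). With all its probe sets averaged, Hsp90b1 also passed (0.0231). Pdia4, a disulfide isomerase gene, stood at 262, 294 and 409 and at 917, 594 and 517, a log2 difference of 1.05 with a 95% interval of 0.38 to 1.72 (adjusted p = 0.0821). Creld2 stood at 359, 227 and 212 and at 644, 379 and 478, a log2 difference of 0.92 with an interval of 0.23 to 1.61 (adjusted p = 0.123). Positive array 1 had the highest value of both genes. Ero1a, which encodes the oxidase that recharges disulfide isomerases, stood at 1105, 1286 and 1266 and at 2417, 2315 and 1539, a log2 difference of 0.75 (adjusted p = 0.0933). The 2 other Ero1a probe sets gave 0.37 and -0.14, and the average of all was 0.33.

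Hyou1, an exchange factor gene for BiP, had a log2 difference of 0.49 (adjusted p = 0.208), and P4hb, which encodes protein disulfide isomerase itself, 0.40 (0.132). Canx was at 0.24 (adjusted p = 0.309), while its other probe sets gave 0.40 and -0.28 and the average of all was 0.12. For the probe sets read for these 3 genes, too, every positive value exceeded every negative one. In all, 10 of the 16 chaperones had groups that did not overlap with the positive arrays higher, and 1 with them lower, against 17.0% and 11.2% of all genes. Those shares include 6781 genes under the array median on every array, while no chaperone was under it on any array. Over the 34 genes the counts were 12 and 3.

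The other 5 chaperones overlapped between the groups. Calr stood at 8890, 8718 and 8883 on the negative and at 7498, 8635 and 9052 on the positive arrays, a log2 difference of -0.08 with an interval of -0.39 to 0.23. Pdia3, whose product works with calnexin and calreticulin, was at 0.27 with an interval of -0.12 to 0.66. The J protein genes Dnajb9 and Dnajb11 were at -0.33 (interval -0.97 to 0.30) and 0.41 (-0.34 to 1.16). Manf, which encodes a secreted ER factor, was at 0.39 with an interval of -0.61 to 1.39, and its 3 negative values ranged over 2.36-fold. These intervals are wide enough to hold the change seen in Hspa5 for Dnajb11 and Manf, but not for Calr, Pdia3 or Dnajb9.

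**Figure D2:**
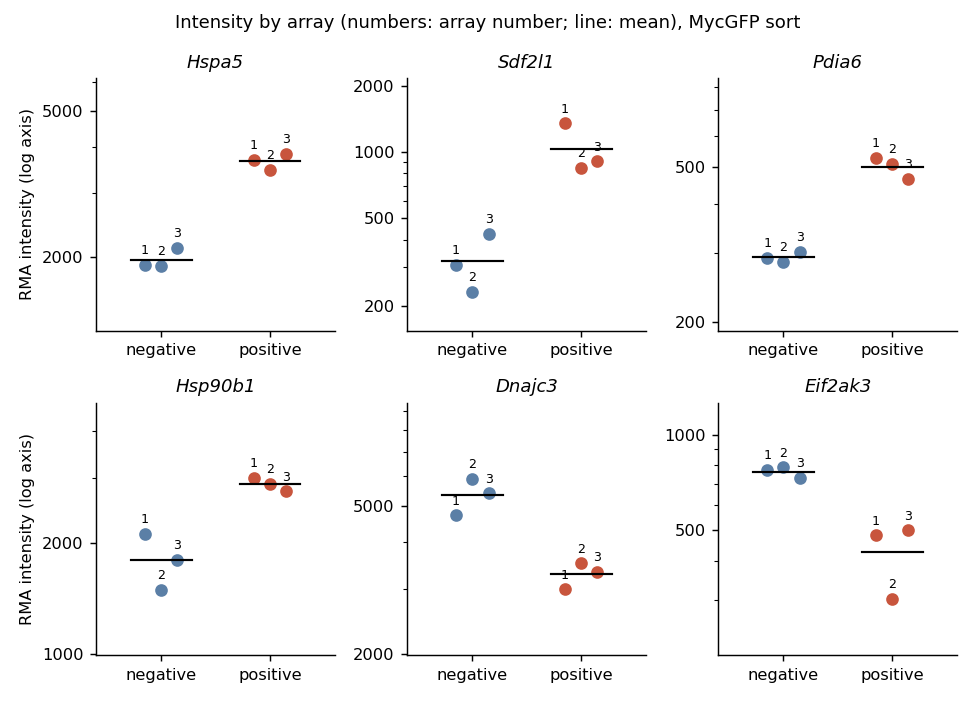
RMA intensity on a log axis on each array for 5 chaperone genes and Eif2ak3, by MycGFP sort, with array numbers beside the points and lines at the group means. In each panel the 3 negative and the 3 positive values are apart, higher in positive cells for Hspa5, Sdf2l1, Pdia6 and Hsp90b1 and lower for Dnajc3 and Eif2ak3.

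The 8 genes with an ERSE did not share a direction. Hspa5 and Pdia6 rose and Dnajc3 fell, while Hsp90b1, Creld2, Canx, Calr and Syvn1 were not called. Over all genes, 4.62% were called higher and 1.51% lower. The groups were apart with the positive arrays higher for 5 of the 8 and lower for 1, against 17.0% and 11.2% of all genes. The median log2 difference of the 8 was 0.47. The ERSE was also found near 12 other measured genes, of which none was called and whose median log2 difference was -0.05. Several of these 12 lay under the array medians on every array and may be background, so that median says little about them. The E-box CACGTG, the usual site of MYC and its partner MAX, stood in the windows of Calr and Dnajb9, 2 of 30 genes, against 8.09% of all genes with a window. Neither gene was called, and the other chaperones with windows did not have those letters in them.

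Degradation genes showed no common direction. Edem1, whose product sends misfolded glycoproteins to degradation, stood at 4831, 5723 and 6039 on the negative and at 2525, 3937 and 4676 on the positive arrays, a log2 difference of -0.61 with an interval of -1.23 to -0.002 (adjusted p = 0.225). Its positive values were all below its negative ones. A second bright Edem1 probe set gave a smaller difference of -0.17, and the average of the probe sets was -0.39. Herpud1, which organises the degradation complex, was at 0.34, Syvn1 at 0.14 and Sel1l, for the partner of HRD1, at -0.22, with adjusted p of 0.412, 0.749 and 0.616. Sec61b, for the channel through which chains enter the ER, stood at 4017, 2454 and 3019 and at 5826, 4230 and 4275, a log2 difference of 0.61 (adjusted p = 0.198). Its groups were apart, with positive array 1 highest.

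Among the sensors, Eif2ak3, which encodes PERK, stood at 774, 788 and 728 on the negative and at 481, 303 and 498 on the positive arrays. Its groups were apart, lower in positive cells, and the log2 difference was -0.87 with an interval of -1.40 to -0.34 (adjusted p = 0.0748). A second Eif2ak3 probe set, at 33.8 to 49.4 and so near the array medians, gave 0.18. Ern1 had a single high value, 265 on positive array 2, against 78.5 to 128 on the other 5 arrays, and a log2 difference of 0.24. Without that array the difference was -0.30. Atf6 likewise had a single high value, 1533 on positive array 1 against 262 to 551 elsewhere, and its difference went from 0.63 to -0.11 without that array. The 2 other Atf6 probe sets gave -0.30 and -0.32. Xbp1 stood at 341, 393 and 188 and at 404, 245 and 307, a log2 difference of 0.09 with an interval of -0.71 to 0.89, and its 4 probe sets differed in sign.

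In the ISR arm, Atf4 stood at 1394, 968 and 1473 on the negative and at 1833, 1501 and 1613 on the positive arrays. The groups were apart by a small margin, and the log2 difference was 0.39 with an interval of -0.10 to 0.87 (adjusted p = 0.338). A second Atf4 probe set of like brightness gave 0.03. Eif2ak4, for GCN2, had a log2 difference of -0.01 with an interval of -0.64 to 0.62. Ppp1r15b, for CReP, which steadily returns eIF2 to its active state, was at -0.14 with an interval of -0.66 to 0.37. For Eif2ak4 and Ppp1r15b the groups overlapped.

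The 6 ATF4 targets overlapped between the groups in every case, as did 13077 of all 18193 genes. Ddit3, which encodes the death-promoting factor CHOP, stood at 325, 267 and 414 on the negative and at 199, 250 and 324 on the positive arrays. Its log2 difference was -0.39 with an interval of -0.98 to 0.21 (adjusted p = 0.445), and a second probe set gave 0.58. Atf5, a related transcription factor gene, was at 0.36 with an interval of -0.38 to 1.11. Ppp1r15a encodes GADD34, the stress-induced counterpart of CReP. It stood at 370, 92.3 and 171 and at 229, 57.6 and 112, so its values differed more between array numbers than between sorts. Within numbers 1, 2 and 3 the positive array was lower by a log2 difference of -0.69, -0.68 and -0.62, and with the number as a block the adjusted p was 0.0552, against 0.653 without it.

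Asns stood at 11.2, 23.2 and 33.6 on the negative and at 25, 59.5 and 60.8 on the positive arrays. The log2 difference was 1.13 with an interval of -0.13 to 2.38 (adjusted p = 0.276). Within numbers 1, 2 and 3 it was 1.16, 1.36 and 0.86, and with the block it was called (0.0348), but 3 of the 6 values lay under their array medians, so the size is uncertain. Trib3, for a pseudokinase that restrains ATF4, was under the median on 5 of 6 arrays, and Chac1 on 4 of 6. Chac1 was 36.5 on negative array 1 and 46.3 on positive array 2, and 8.68 to 10.8 on the other 4 arrays. For Trib3 and Chac1 these arrays gave no measurable difference at this signal, with intervals of -1.37 to 0.43 and -1.89 to 1.94.

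**Figure D3:**
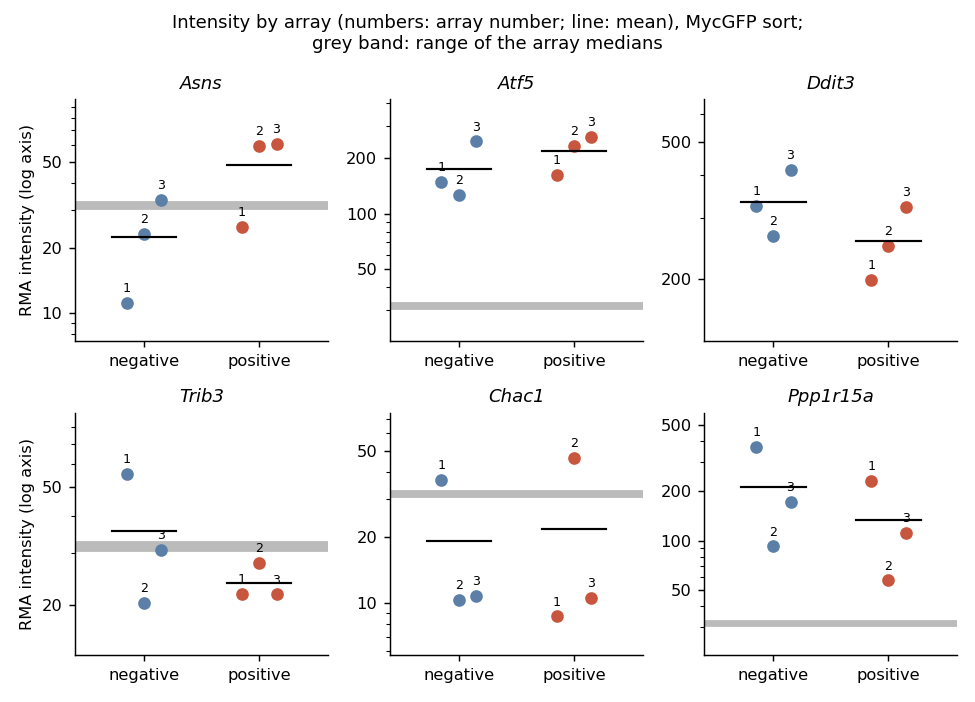
RMA intensity on a log axis on each array for the 6 ATF4 targets, by MycGFP sort, with array numbers beside the points, lines at the group means and a grey band at the range of the array medians (30.5 to 32.7), which lies below the Ddit3 panel. The groups overlap in all 6 panels, and most values of Trib3 and Chac1 lie under the band.

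The chaperones were set against the ATF4 targets on each array, as the mean log2 intensity over each list after centring every gene on its mean over the 6 arrays. The chaperone level was -0.16, -0.35 and -0.22 on negative arrays 1, 2 and 3 and 0.40, 0.18 and 0.16 on the positive arrays, so the groups were apart. The ATF4 target level was 0.32, -0.47 and 0.15 on the negative and -0.27, 0.21 and 0.05 on the positive arrays, with no separation. The difference between the lists averaged -0.25 in negative and 0.25 in positive cells, a gap of 0.49. These 2 averages are equal and opposite because every gene was centred. The chaperone level itself differed by 0.49 between the group means and the ATF4 target level by -0.001, so this gap was that of the chaperones. The gap was 0.28 without positive array 1, and 0.81 without both arrays numbered 2. The difference between the lists overlapped between the groups, at 0.12 on negative array 2 and -0.03 on positive array 2. Over the 3 ATF4 targets that exceeded the median on every array (Atf5, Ddit3 and Ppp1r15a), the gap was 0.72 and still overlapped, at 0.09 on negative array 2 and 0.07 on positive array 3. No p-value is given, since the genes were chosen with results known.

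Within pairs of arrays of equal number, most chaperones were higher in positive cells. Within numbers 1, 2 and 3 the median log2 difference over the 16 was 0.52, 0.59 and 0.35. Of the 16, 13 were higher in positive cells each time. Over all 18193 genes the medians were 0.05, 0.04 and -0.02, with 9904, 9788 and 8782 genes higher. These are the same arrays as in the main comparison, so the pairs add no separate evidence. Of the 34 genes, 17 were higher in all 3 such pairs and 7 lower in all 3, against 25.9% and 21.3% of all genes. Plasma cells are rich in ER chaperones. Their 7 measured markers summed to 13452 to 16881 in negative and 9888 to 12415 in positive cells, and none was called. The sum was mostly that of Sdc1 and Irf4. Sdc1 was apart and lower in positive cells, and Fkbp11, at 17.5 to 19.0 in negative and 21.96 to 24.04 in positive cells and so under the array medians, was apart and higher. The other 5 overlapped. Jchain, an immunoglobulin joining chain gene, was at 303 to 777 and 126 to 521, and Mzb1 at 51.0 to 687 and 19.7 to 61.4. Tnfrsf17 was under the array median on 6 of 6 arrays and Prdm1 on 5 of 6. The part of such cells in the result was not tested.

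The wider pathway was read from lists of other genes, whose members were chosen with earlier results of these data known. Of 152 such genes measured, 14 were called higher and 1 lower, against 4.62% and 1.51% of all genes, and the list medians differed by role. Among 23 other chaperone, folding and glycan-trimming genes, 2 rose and 21 did not pass, at a median of 0.20. Txndc5, an ER thioredoxin gene, went from 63.4, 63.7 and 67.4 to 188, 175 and 142 (2.58-fold, adjusted p = 0.0135). Mogs, for the glucosidase that starts glycan trimming, went from 694, 633 and 801 to 1391, 1573 and 1297 (2.01-fold, adjusted p = 0.023). None of 27 translocon, signal peptidase and oligosaccharyltransferase genes passed (without adjustment, 9 were higher and 1 lower at p under 0.05, against 14.7% and 7.35% of all genes), at a median of 0.19. The 2 with the largest differences were Spcs3 at 0.59 and Ddost at 0.58.

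While 1.51% of all genes were called lower, 1 of 19 other degradation genes fell and 18 did not pass, at a median of -0.02. This was Os9, for a lectin that passes misfolded glycoproteins to HRD1, which went from 1231, 1058 and 1104 to 590.5, 691 and 691, a fall of 1.72-fold (adjusted p = 0.0317, but 0.0596 with the block and 0.0533 with probe sets averaged). None of 17 other UPR transducers passed (without adjustment, 1 higher and 0 lower, against the same 14.7% and 7.35%), with Creb3l2 at -0.78 and Mbtps2 at 0.44 as the largest differences. Of 15 genes for other eIF2 kinases, eIF2, its exchange factor eIF2B and the phosphatase, 2 rose, at a list median of 0.32. Over all genes, 4.62% were called higher. Eif2b3, an eIF2B subunit gene, went from 77.0, 137 and 157 to 560, 569 and 559 (4.76-fold, adjusted p = 0.0162). Gcn1, for the activator of GCN2, went from 457, 437 and 496 to 888, 899 and 852 (1.90-fold, adjusted p = 0.0172). Averaging the Gcn1 probe sets gave a log2 difference of 0.04 (adjusted p = 0.891).

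ATF4 targets outside the 6 did not all resemble them. Of 19 for amino acid supply, 6 rose and 13 did not pass, at a median of 0.58, while 4.62% of all genes were called higher. Shmt2 and Mthfd2, for mitochondrial one-carbon enzymes, rose 3.95-fold and 2.99-fold, Phgdh, for serine synthesis, 4.23-fold and the transporter gene Slc7a5 2.74-fold (adjusted p of 0.0103, 0.0319, 0.0116 and 0.0218). Of 13 tRNA synthetase and tRNA export genes, 4 rose and 9 did not pass, and all 13 had positive differences, at a median of 0.96. Gars rose 2.35-fold, Lars 2.36-fold, Eprs 1.95-fold and Aars 1.66-fold (adjusted p of 0.0182, 0.0189, 0.0233 and 0.0475), Aars losing its call with the block (0.0849) and with probe sets averaged (0.0525). Of 19 stress effectors none passed (without adjustment, 3 higher and 4 lower, against 14.7% and 7.35% of all genes), at a median of -0.09, with Eif4ebp1 at 2.12 and Jdp2 at 1.58 as the largest differences. Eif4ebp1 rested on a value of 1015 on positive array 3, against 47.4 to 263 on the others.

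**Figure D4:**
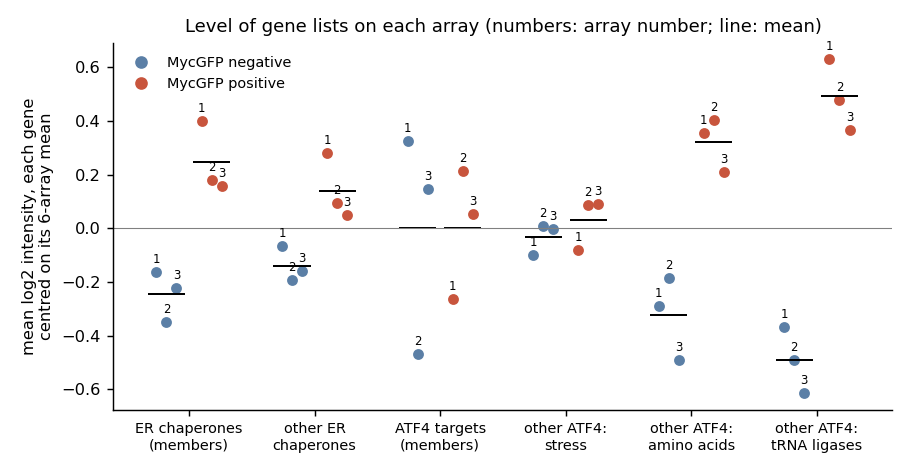
Mean log2 intensity of 6 gene lists on each array, every gene centred on its mean over the 6 arrays, with array numbers beside the points and lines at the group means. The groups are apart for both chaperone lists, for amino acid supply and for tRNA synthetases, and overlap for the 6 ATF4 targets and the stress effectors.

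**Figure D5:**
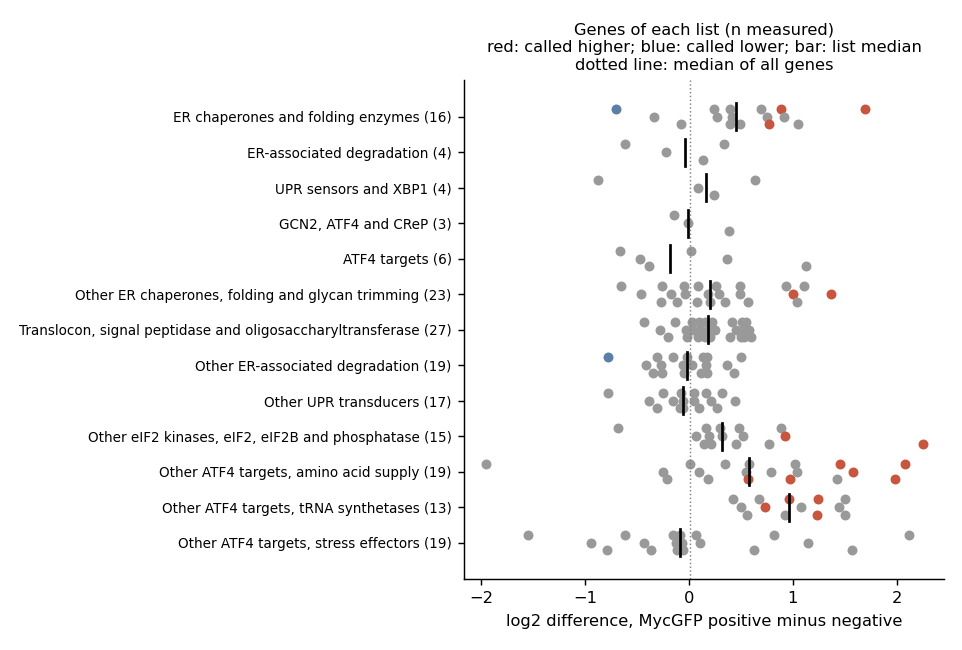
Log2 difference of each measured gene (positive minus negative) by list, red where called higher and blue where called lower, with a bar at each list's median and a dotted line at the median of all genes, 0.01. Sec61b, the only member of its list, is not drawn. Called genes lie in the chaperone, degradation, eIF2, amino acid and tRNA synthetase lists. The highest medians of the lists drawn are 0.96 for tRNA synthetases and 0.58 for amino acid supply.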

How the data were processed

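RNA of sorted splenocytes was amplified from 5 ng of total RNA with the Ovation system and biotin-labelled, per the labels' protocols, which can add noise to dim genes. The deposited values are intensities, summarised per probe set with RMA by the authors, per the submitters' processing notes. They are linear, so log2 was taken here. RMA scales arrays to one another, which hides changes in total RNA. The genes and lists were chosen with earlier results of these data known. Names came from the platform's probe annotation, updated through RefSeq (GRCm38.p6). Of 45101 probe sets, 34945 had 1 symbol and 932 several, which were left out, as were 64 controls. Each gene took its probe set of highest mean log2 value. The sorts were compared in R 4.3.3 by limma 3.58.1, with no covariate and Benjamini-Hochberg adjustment over 18193 genes, after a check on simulated data. All 34 genes are named, with up to 4 called genes of smallest adjusted p from each further list, or, where none was called, the 2 genes that differed most. No filter on low values was used, and the number of arrays limits precision.

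Residuals of arrays of equal number correlated across genes at r = 0.38, 0.21 and 0.39, and those of unequal number at -0.32 to -0.03. As residuals were centred within each group, negative values at unequal number largely follow from positive ones at equal number and are not separate evidence. No label says that the numbers pair the arrays. They were used as pairs in the fit with a block and in the differences within numbers, while the main fit had no block. The block is given where it changes a call. Other alternatives were each array left out, all probe sets averaged, arrays centred, only genes above the median level, no cross-hybridising probe sets, a trended and robust variance, a pseudocount of 16 and, chosen after seeing the data, both arrays numbered 2 left out.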

Additional observations from a re-analysis of the deposited data

How the results depend on the processing

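Over 14 alternatives and 54 named genes, 623 of 752 log2 differences kept their direction and their side of the threshold. With a block for the array number, 1047 genes were higher and 354 lower and 5 of the 34 genes were higher; among named genes only Creld2, Asns, Os9 and Aars changed their call. Centring each array moved the median over all genes from 0.01 to -0.14 and gave 502 genes higher and 381 lower, against 840 and 275, with the chaperone median at 0.30. Leaving out 1 array gave 0 to 862 genes higher and 0 to 238 lower, 0 to 3 of the 34 higher and 0 lower each time. The chaperone median was then 0.46 to 0.67 and the ATF4 target median -0.42 to 0.13. The latter was also 0.060 with probe sets averaged and 0.023 without cross-hybridising probe sets, where Dnajc3 was lost and 0 of the 34 were lower. Without both arrays numbered 2, 0 genes were higher or lower, 0 of the 34 were called, the smallest adjusted p over all genes was 0.201, and the ATF4 target median was -0.59; few arrays remained.

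Signs turned only for genes that were not called. With probe sets averaged, Ern1 was at -0.16, Xbp1 at -0.14, Ppp1r15b at 0.20 and Ddit3 at 0.099. With arrays centred, Syvn1 was at -0.0097, Xbp1 at -0.062 and Chac1 at -0.13. Without cross-hybridising probe sets, Syvn1 was at -0.059 and Trib3 at 0.025. Without both arrays numbered 2, Ern1 was at -0.43, Eif2ak4 at 0.023 and Chac1 at -1.05. Leaving out 1 array gave ranges of -0.13 to 0.0018 for Calr, -0.74 to 0.62 for Chac1, -0.30 to 0.58 for Ern1, -0.23 to 0.30 for Xbp1, -0.11 to 1.09 for Atf6, -0.25 to 0.19 for Eif2ak4 and -0.31 to 0.014 for Ppp1r15b. Beyond the constructions named, the cause was not tested.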
